A study of Mus musculus with 6 samples.

Results

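The genes of the BMP, activin, nodal and TGF-beta pathways were examined in the presomitic mesoderm of the mouse embryo, the caudal tissue from which new somites bud. The members were all genes with a single-gene probe whose symbol names a ligand, receptor, extracellular antagonist, Smad or Id gene of these pathways, such as Bmp4, Acvr2b, Chrd, Smad5 and Id1. The rule took 56 of the 13840 named genes on the array, each with 1 probe. Embryos carrying LacZ in place of the Nrarp coding region (Nrarp knockout) were compared with their wildtype littermates, all at embryonic day 10.5 and all from matings of heterozygous mice. There were 3 one-colour arrays of each genotype, with replicate numbers 1 to 3, from 12 dissected tissues per genotype. The mutation is a germline replacement, so every tissue of the embryo lacked the coding region. The labels do not say how this tissue was shared out over the arrays. The p-values therefore reflect the spread among 6 arrays, which may be technical in origin. In pooled tissue, fewer cells of a type and less RNA per cell cannot be told apart.

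Ligands of this superfamily bind pairs of type I and type II serine/threonine kinase receptors at the cell surface. The type I receptor then phosphorylates receptor Smads, BMP receptors acting on Smad1, Smad5 and Smad9 and activin, nodal and TGF-beta receptors on Smad2 and Smad3, and these enter the nucleus with Smad4. Secreted antagonists such as noggin, chordin and gremlin bind BMPs outside the cell, and Smad6, Smad7 and Bambi dampen the signal inside it or at the membrane. In the tail of the embryo BMP signalling helps to set lateral against paraxial mesoderm, and Id genes are widely used as a readout of it.

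Upstream sequences are shown for 5 members to give the context of these genes near motifs of the pathway and of Notch, the pathway on which Nrarp acts. RefSeq start sites of build GRCm38.p6 were listed for 40 of the 56 members, in 46 windows, and the 250 bases before each start were searched on both strands for GGCGCC, a GC-rich element bound by BMP Smads, for the palindromic Smad element GTCTAGAC and for GTGGGAA, a core site of the Notch effector RBPJ. GGCGCC stood in 19.6% of the member windows, against 9.59% of all 32851 windows. Member windows were richer in G and C, with a median of 64.6% against 52.4% over all windows. GTGGGAA stood in 6.52% of the member windows, against 5.42% of all windows. GTCTAGAC stood in 0 member windows, against 0.167% of all windows. The motifs searched do not overlap each other in the sequences below, where capitals mark a match. Smad9 (chr3:54755332-54755581, plus strand) and Bmpr2 (chr1:59764029-59764278, plus strand) are shown because their windows held both GGCGCC and GTGGGAA, as 0.454% of all windows did. Chrd (chr16:20732877-20733126, plus strand) and Tgfbr1 (chr4:47352972-47353221, plus strand) are shown because they held GGCGCC and had bright probes. Inhbc (chr10:127370549-127370798, minus strand) is shown because it had the smallest p between genotypes, and its window held 0 matches.
Smad9: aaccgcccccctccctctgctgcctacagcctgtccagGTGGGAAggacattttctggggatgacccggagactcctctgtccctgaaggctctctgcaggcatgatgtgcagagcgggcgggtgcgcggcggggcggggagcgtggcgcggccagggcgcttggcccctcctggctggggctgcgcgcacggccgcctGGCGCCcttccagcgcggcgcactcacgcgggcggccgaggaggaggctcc
Bmpr2: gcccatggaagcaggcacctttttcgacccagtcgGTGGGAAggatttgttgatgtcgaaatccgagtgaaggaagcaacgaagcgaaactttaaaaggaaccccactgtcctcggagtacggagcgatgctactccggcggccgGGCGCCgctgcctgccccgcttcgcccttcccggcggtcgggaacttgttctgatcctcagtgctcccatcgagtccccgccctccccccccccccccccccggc
Chrd: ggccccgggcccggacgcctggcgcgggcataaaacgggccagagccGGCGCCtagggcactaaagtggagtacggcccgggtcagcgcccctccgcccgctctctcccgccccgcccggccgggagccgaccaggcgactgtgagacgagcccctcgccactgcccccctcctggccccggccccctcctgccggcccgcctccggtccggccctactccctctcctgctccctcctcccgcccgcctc
Tgfbr1: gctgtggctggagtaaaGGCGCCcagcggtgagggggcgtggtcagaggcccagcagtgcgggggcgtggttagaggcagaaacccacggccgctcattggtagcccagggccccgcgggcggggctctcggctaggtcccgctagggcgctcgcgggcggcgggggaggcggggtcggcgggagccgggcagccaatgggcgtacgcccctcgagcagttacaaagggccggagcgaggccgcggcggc
Inhbc: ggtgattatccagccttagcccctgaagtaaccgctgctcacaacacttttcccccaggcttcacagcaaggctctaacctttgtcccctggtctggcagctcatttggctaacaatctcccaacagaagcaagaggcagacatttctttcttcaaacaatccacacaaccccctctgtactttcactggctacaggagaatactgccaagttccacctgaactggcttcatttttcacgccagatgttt

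Intensities are given per probe on a linear scale, set by the authors so that each array's median lay between 0.981 and 0.993. A probe's brightness depends on its own sequence, so levels are compared between arrays for each gene and brightness is given only against the array's other probes. The knockout label was borne out by the Nrarp probe, which averaged 26.7 ± 14.4 in knockout and 398 ± 70.2 in wildtype tissue (SD, n = 3 each), although whether it lies inside the replaced part was not given. The arrays numbered 1 stood apart in both genotypes. The ratio of their 75th to their 10th percentile was 56.9 in the knockout and 42.7 in wildtype, against 12.4 to 16.0 on the other 4 arrays. Presomitic markers were present on every array: the 10 probes, among them Tbx6, Msgn1 and Mesp2, lay above the array median on all 6 arrays, and their summed intensity was 1598 to 1741 in knockout and 1514 to 1792 in wildtype tissue. Tbx6 and Dll3 carried that sum, and single markers were less even. Msgn1 read 50.1 and 50.2 on the arrays numbered 1, against 2.80 to 4.30 on the others. Of the 10 markers, 6 were higher and 2 lower on the arrays numbered 1 without overlap. Among all probes with a mean log2 intensity above 0, 46.7% were higher and 22.6% lower.

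Of the 56 members, 9 lay above the 75th percentile of every array (16.1%, against 20.3% of all probes). These were the receptor genes Tgfbr1 and Acvr2b, the ligand gene Tgfb2, the antagonist gene Chrd, the follistatin-like gene Fstl1, Smad2, Smad6, Bambi and Id1. At the other end, 15 members lay at or below the median of every array (26.8%, against 29.2%). Among them were 9 of the 17 BMP and GDF ligands, namely Bmp5, Bmp6, Bmp10, Bmp15, Gdf2, Gdf3, Gdf5, Gdf9 and Mstn. The remaining 6 were Acvr1b, Tgfbr3, Smad9, Id4, Inhbe and Bmp2k, a kinase gene that the rule takes in by its name. The genes Smad4, Smad7, Gdf11, Fst, Id2 and Id3 have no single-gene probe here and were not analysed, and the probe for Gdf1 is shared with Cers1.

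**Figure D1:**
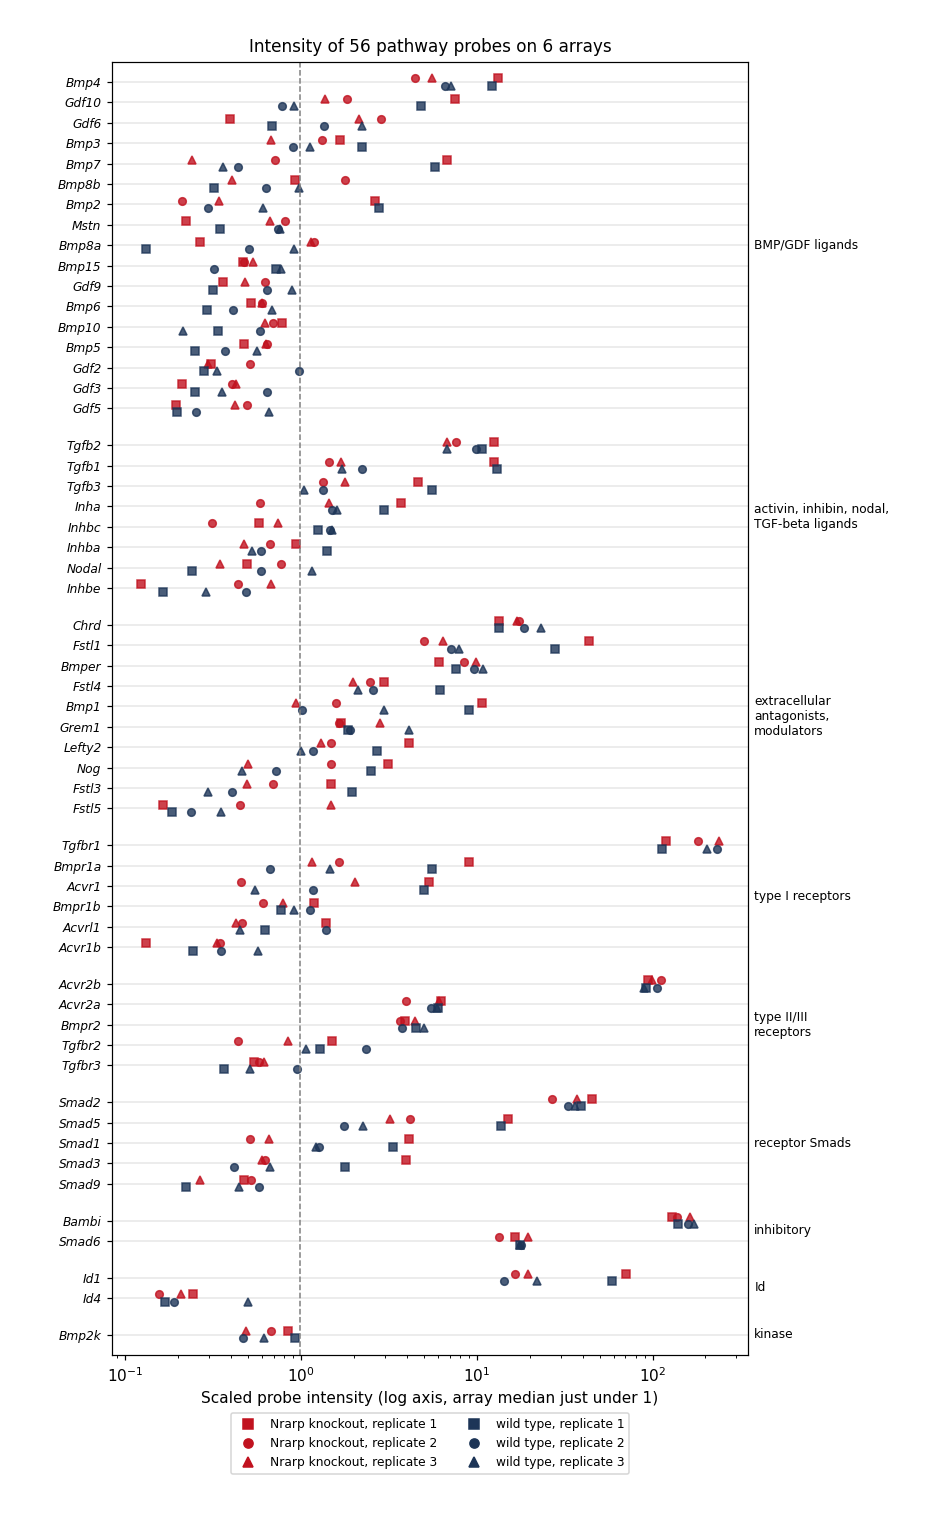
Scaled probe intensity (horizontal log axis, array median just under 1, dashed line) of the 56 members, grouped by role. Red symbols are knockout arrays, drawn above the blue wildtype arrays, and the symbol shape gives the replicate number. Squares, the replicate 1 arrays, lie apart from the circles and triangles for many genes, such as Bmp7 and Tgfb1, while Acvr2b and Bambi lie close together on all 6 arrays.

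No member differed between genotypes after adjustment. In the limma fit over all 33012 probes, 0 of 56 members had an adjusted p under 0.05 (smallest adjusted p 1.00), where 0% of all probes did. With the replicate number as a block the count of members was also 0 (smallest adjusted p 0.999), and 2 of all probes passed (0.00606%). At an unadjusted p under 0.05 there was 1 member without the block, Inhbc (1.79%, against 0.657% of all probes). With the block there were 3, Inhbc, Gdf10 and Smad5 (5.36%, against 3.75%). Knockout minus wildtype log2 differences were above 0 for 24 members, where 49.1% of all probes were, and below 0 for 32. Their median was -0.08, against -0.01 over all probes. The count above 0 was 15 without knockout replicate 1, where 53.7% of all probes were above 0. It was 33 without knockout replicate 2, where 51.3% of all probes were. Fits that left out a single array, here and below, had no block. Without a replicate 1 array they therefore mixed the replicate difference into the genotype difference. The absolute difference had a median of 0.23 over the members and 0.22 over all probes, and it was over 1 for 2 members, Inhbc and Bmp10 (3.57%, against 4.04% of all probes). The sign was the same in all 3 replicate pairs for 18 members (32.1%, against 23.7% of all probes), of which 8 were positive (14.3%, against 13.2%) and 10 negative (17.9%, against 10.5%). Pairs here and below join arrays of the same number, which no label ties to a litter or day.

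**Figure D2:**
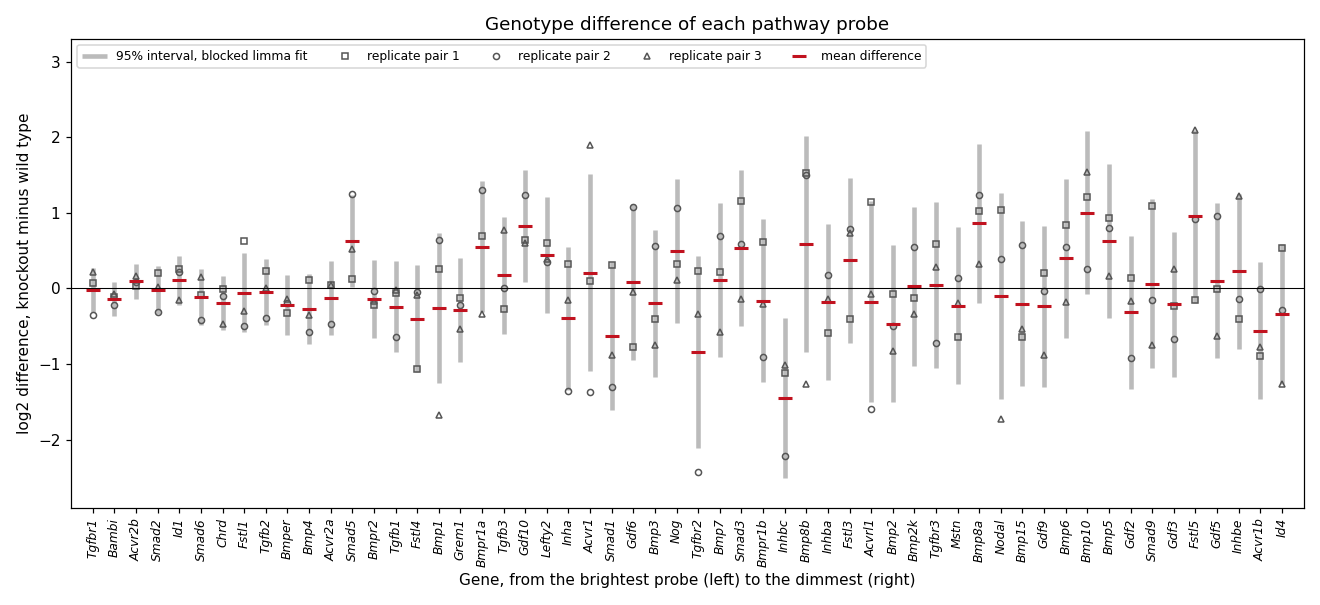
Log2 difference, knockout minus wildtype (vertical axis), of each member, ordered from the brightest probe to the dimmest. Red bars are mean differences, open symbols the 3 replicate pairs and grey lines the 95% interval of the limma fit with the replicate block. Intervals are narrow for bright probes such as Bambi and Acvr2b and wide for dim ones. That of Inhbc lies wholly below 0, and those of Gdf10 and Smad5 lie wholly above 0.

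Among the BMP and GDF ligands, Bmp4, which patterns ventral and lateral mesoderm, had the brightest probe. It read 13.1, 4.45 and 5.55 on knockout arrays 1 to 3, against 12.1, 6.62 and 7.11 on wildtype arrays. The groups overlapped, and within each genotype array 1 was the highest. The log2 difference was -0.27, with a 95% interval for the fold of 0.600 to 1.14 in the blocked fit. Bmp2 and Bmp7, ligands that with Bmp4 act through BMP type I receptors, were above the array median on the replicate 1 arrays alone. Bmp7 read 6.73, 0.711 and 0.240 in the knockout, against 5.78, 0.439 and 0.357 in wildtype. Bmp2 read 2.62, 0.210 and 0.342 in the knockout, against 2.76, 0.295 and 0.609 in wildtype. Both genes were highest on array 1 of each genotype, and neither separated the genotypes (log2 differences 0.11 and -0.47).

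Gdf10, a BMP3-related ligand gene, was higher in the knockout when arrays of the same number were compared. It read 7.46, 1.83 and 1.37 on knockout arrays, against 4.78, 0.778 and 0.906 on wildtype arrays. Every knockout array exceeded the wildtype array of its own number, but the groups overlapped because wildtype array 1 was above knockout arrays 2 and 3. The log2 difference was 0.82 (limma unadjusted p = 0.385 without and 0.033 with the block, adjusted p = 0.999 with it). Without knockout replicate 1 it was 0.08, and without wildtype replicate 1 it was 1.66. Within replicates 2 and 3 the limma unadjusted p was 0.123 without and 0.155 with the block.

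Bmp10, a ligand known from the developing heart, was the only member besides Inhbc whose genotypes did not overlap (2 of 56 members, against 3.78% of all probes). It was the 1 member above wildtype, as were 2.04% of all probes, and Inhbc the 1 below, as were 1.74%. It read 0.780, 0.695 and 0.621 on knockout arrays, against 0.337, 0.583 and 0.213 on wildtype arrays. All 6 values were below the array medians, so the probe was dim in both genotypes. The log2 difference was 1.00, the exact permutation p was 0.1, the smallest that 3 against 3 arrays allow, and the limma adjusted p was 0.999 with the block. Bmp3, a BMP family member that opposes BMP signals in bone, read 1.67, 1.32 and 0.674 on knockout arrays, against 2.22, 0.895 and 1.13 on wildtype arrays (-0.20). Gdf6, needed for joint and skeletal patterning, read 0.395, 2.85 and 2.14 on knockout arrays, against 0.678, 1.36 and 2.21 on wildtype arrays, was lowest on array 1 of each genotype and had a difference of 0.08. Bmp8a (0.86) and Bmp8b (0.59) are close copies of each other, so their probes may share signal. The remaining ligands of this class ranged from -0.32 for Gdf2 to 0.63 for Bmp5.

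Of the 8 activin, inhibin, nodal and TGF-beta ligand genes, Inhbc had the largest difference of any member. Inhbc encodes the beta C subunit of inhibin and activin dimers, which is best known from liver. It read 0.576, 0.312 and 0.740 on knockout arrays, against 1.25, 1.46 and 1.49 on wildtype arrays. Every knockout value lay below its array's median and every wildtype value above it, with no overlap. The log2 difference was -1.45, a fold of 0.366 (95% interval 0.175 to 0.765 with the block). It was negative in all 3 pairs (-1.11, -2.22 and -1.01). The limma unadjusted p was 0.0191 without and 0.0133 with the block, and the adjusted p was 1.00 and 0.999. The exact permutation p was 0.1. Leaving out single arrays moved the log2 difference between -1.72 and -1.09. The limma unadjusted p was 0.0523 without wildtype replicate 2, 0.0541 without wildtype replicate 3, 0.061 without knockout replicate 2 and 0.0567 after centring on 75th percentiles. Inhbe, the neighbouring gene on chromosome 10 and a related beta subunit, read 0.123, 0.437 and 0.673 on knockout arrays, against 0.163, 0.483 and 0.288 on wildtype arrays, and overlapped between genotypes (0.23).

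The TGF-beta ligand genes did not separate the genotypes. Tgfb2 read 12.5, 7.60 and 6.73 on knockout arrays, against 10.6, 9.93 and 6.74 on wildtype arrays, and its fold had a 95% interval of 0.713 to 1.31. Tgfb1 read 12.5, 1.43 and 1.68 in the knockout, against 13.0, 2.23 and 1.70 in wildtype. Tgfb3 read 4.60, 1.34 and 1.78 in the knockout, against 5.57, 1.33 and 1.04 in wildtype. All 3 genes were highest on array 1 of each genotype, and log2 differences between genotypes were -0.05, -0.24 and 0.17. Inha, the inhibin alpha subunit, which blocks activin action, read 3.71, 0.580 and 1.44 in the knockout, against 2.97, 1.49 and 1.60 in wildtype. The activin subunit gene Inhba (-0.19) and Nodal (-0.10), which acts earlier in mesoderm and left-right patterning, were dim.

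Of the 10 extracellular antagonists and modulators, none separated the genotypes. Chrd, a BMP antagonist first known from the organizer, read 13.3, 17.3 and 16.8 on knockout arrays, against 13.4, 18.6 and 23.3 on wildtype arrays. It averaged 15.8 ± 2.17 in the knockout and 18.4 ± 4.96 in wildtype (SD, n = 3 each), and the 95% interval of the fold was 0.683 to 1.12. Bmper, which binds BMPs and can both raise and lower their signal, read 6.10, 8.42 and 9.86 in the knockout, against 7.64, 9.66 and 10.9 in wildtype. Both genes overlapped between genotypes, were below wildtype in all 3 pairs and were lowest on array 1 of each genotype. Fstl1, a secreted follistatin-like glycoprotein, ran the other way across arrays, at 43.2, 5.03 and 6.38 in the knockout, against 27.9, 7.12 and 7.87 in wildtype. Bmp1, a protease that cleaves chordin and is no BMP ligand, read 10.7, 1.59 and 0.933 in the knockout, against 8.97, 1.02 and 2.97 in wildtype, again highest on array 1. Fstl4, a follistatin-like gene, read 2.94, 2.46 and 1.98 in the knockout, against 6.18, 2.55 and 2.10 in wildtype, and its difference of -0.40 came mainly from array 1.

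The dimmer antagonist genes had small signals with mixed signs. Nog, the BMP antagonist noggin, read 3.11, 1.49 and 0.497 in the knockout, against 2.49, 0.715 and 0.461 in wildtype, and was higher in the knockout within each pair (log2 difference 0.50). Lefty2, a nodal antagonist, read 4.09, 1.48 and 1.30 in the knockout, against 2.71, 1.16 and 0.997 in wildtype, also higher within each pair (0.44). Grem1, a BMP antagonist of the limb bud and tail, read 1.68, 1.64 and 2.82 in the knockout, against 1.84, 1.91 and 4.09 in wildtype, lower within each pair (-0.29). All 3 genes overlapped between genotypes. Their limma unadjusted p with the block was 0.268 for Nog, 0.221 for Lefty2 and 0.36 for Grem1. Fstl3 and Fstl5 had differences of 0.37 and 0.95, and the highest Fstl5 value was 1.48 on knockout array 3.

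Among type I receptors, Tgfbr1, the TGF-beta receptor also known as ALK5, was bright and differed more between replicates than between genotypes. It read 119, 181 and 239 on knockout arrays, against 114, 232 and 205 on wildtype arrays. Array 1 was the lowest in both genotypes, the groups overlapped, and the 95% interval of the fold was 0.806 to 1.20. Bmpr1a, the main BMP type I receptor of early mesoderm, read 9.05, 1.65 and 1.15 in the knockout, against 5.58, 0.666 and 1.45 in wildtype (log2 difference 0.55). Acvr1, a type I receptor for BMPs, read 5.34, 0.453 and 2.03 in the knockout, against 4.99, 1.17 and 0.544 in wildtype (0.21). Both were highest on array 1 of each genotype, and arrays 2 and 3 gave opposite signs for both. Bmpr1b, a BMP receptor of cartilage and limb, read 1.18, 0.603 and 0.792 in the knockout, against 0.766, 1.13 and 0.912 in wildtype (-0.16). The endothelial receptor gene Acvrl1 (-0.18) and the activin and nodal receptor gene Acvr1b (-0.56) had dim probes.

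Acvr2b, Acvr2a and Bmpr2, all type II receptor genes, varied little over the 6 arrays, while Tgfbr2 varied widely. Acvr2b, a type II receptor for activins, GDF11 and nodal, read 94.1, 112 and 99.7 on knockout arrays, against 91.9, 106 and 89.3 on wildtype arrays. It averaged 102 ± 9.33 in the knockout and 95.6 ± 8.81 in wildtype (SD, n = 3 each). The genotypes overlapped and the 95% interval of the fold was 0.907 to 1.26. Acvr2a, its close relative, read 6.23, 3.95 and 6.12 in the knockout, against 6.03, 5.49 and 5.92 in wildtype. Bmpr2, the BMP type II receptor, read 3.88, 3.66 and 4.46 in the knockout, against 4.51, 3.73 and 5.02 in wildtype, with an interval of 0.637 to 1.29. None of these genes separated the genotypes or the replicate numbers on the deposited scale. Tgfbr2, the TGF-beta type II receptor, was near the array medians, at 1.51, 0.435 and 0.841 in the knockout, against 1.28, 2.35 and 1.06 in wildtype. Its log2 difference of -0.85 came mainly from pair 2 (-2.43), and pair 1 was positive (0.23).

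Of the receptor Smads, Smad2, the effector of activin and nodal signals, was bright and overlapped between genotypes. It read 45.3, 26.6 and 36.9 on knockout arrays, against 39.3, 32.9 and 36.4 on wildtype arrays, with a 95% interval for the fold of 0.788 to 1.22. Smad5, an effector of BMP signals, read 15.0, 4.16 and 3.20 in the knockout, against 13.7, 1.75 and 2.23 in wildtype. Each knockout array was above the wildtype array of its number, yet the groups overlapped because array 1 was far above the others. The log2 difference was 0.63 (limma unadjusted p = 0.506 without and 0.0431 with the block, adjusted p = 0.999 with it), and within replicates 2 and 3 it was 0.88. With the block and a variance prior that ignores intensity the limma unadjusted p was 0.102. The log2 difference of Smad5 was -0.049 without knockout replicate 1 and 1.56 without wildtype replicate 1. Smad1, which acts in the same BMP branch, had the opposite sign (-0.63), at 4.10, 0.510 and 0.655 in the knockout, against 3.32, 1.26 and 1.21 in wildtype. Smad3 read 3.94, 0.625 and 0.599 in the knockout, against 1.77, 0.416 and 0.662 in wildtype (0.53). Smad2, Smad5, Smad1 and Smad3 were all highest on array 1 of each genotype.

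The feedback inhibitors were bright and nearly even. Bambi, a pseudoreceptor that blocks BMP and TGF-beta receptors and is itself induced by BMP signals, read 129, 138 and 162 on knockout arrays, against 140, 160 and 171 on wildtype arrays. It averaged 143 ± 17.3 in the knockout and 157 ± 15.6 in wildtype (SD, n = 3 each), was lower in the knockout within each pair and overlapped between genotypes, with a 95% interval for the fold of 0.779 to 1.06. Smad6, an inhibitory Smad of the BMP branch, read 16.6, 13.3 and 19.6 in the knockout, against 17.6, 17.8 and 17.6 in wildtype. Its knockout values fell on both sides of the wildtype values, and the interval was 0.715 to 1.19. Id1, a dominant-negative helix-loop-helix gene induced by BMP, read 70.5, 16.4 and 19.6 in the knockout, against 58.9, 14.2 and 21.9 in wildtype. Array 1 was the highest in both genotypes, the genotype difference was 0.11, and the interval was 0.861 to 1.34. Id4, a related gene with one of the dimmest probes, read 0.243, 0.154 and 0.208 in the knockout, against 0.168, 0.189 and 0.500 in wildtype (-0.34).

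Many members varied with the replicate number. On the deposited scale, 24 members were higher on both replicate 1 arrays than on any other array (42.9%, against 25.2% of all probes), and 12 were lower on both (21.4%, against 34.4%). These shares depend on brightness. Of the 30 members with a mean log2 intensity above 0, 19 were higher on replicate 1 (63.3%, against 46.7% of all such probes) and 4 were lower (13.3%, against 22.6%). Of the 26 dimmer members, 5 were higher (19.2%, against 5.77%) and 8 lower (30.8%, against 45%). The split also depends on scaling. After quantile normalization 21 members were higher and 12 lower (all probes 20.9% and 23.1%), and after centring on 75th percentiles 17 were higher (30.4%, against 14% of all probes) and 27 lower (48.2%, against 60.9%).

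The largest replicate differences were those of Bmp7, Bmp2, Tgfb1, Bmp1 and Bmpr1a. Bmp7 averaged 6.25 on the replicate 1 arrays and 0.437 on the others, a log2 difference of 3.95, or 3.73 after quantile normalization. The log2 difference was 2.99 for Bmp2, 2.87 for Tgfb1, 2.75 for Bmp1 and 2.61 for Bmpr1a, and after quantile normalization it was 3.01, 2.22, 2.16 and 2.07. Next came Acvr1 (2.56), Smad5 (2.42), Fstl1 (2.41), Gdf10 (2.37), Smad3 (2.22), Smad1 (2.13), Nog (1.99), Fstl3 (1.92), Tgfb3 (1.91) and Id1 (1.86), all higher on replicate 1. The 12 members lower on replicate 1 ranged from -2.26 for Bmp8a and -1.998 for Gdf6 (-1.63 and -1.90 after quantile normalization) to -0.50 for Chrd and Bmper. Inhbe (-1.67), Fstl5 (-1.48) and Mstn (-1.42) were among them, as was Tgfbr1 (-0.88). By quantile normalization, replicate 1 was also lower for Acvr2b (-0.33), Bambi (-0.36), Acvr2a (-0.52), Bmpr2 (-0.66), Smad6 (-0.70) and Grem1 (-0.84), which overlapped between replicate numbers on the deposited scale. The ligand, receptor and Smad classes each held genes with large and small replicate differences. No test was made of this split, because it was known from earlier results of these data.

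**Figure D3:**
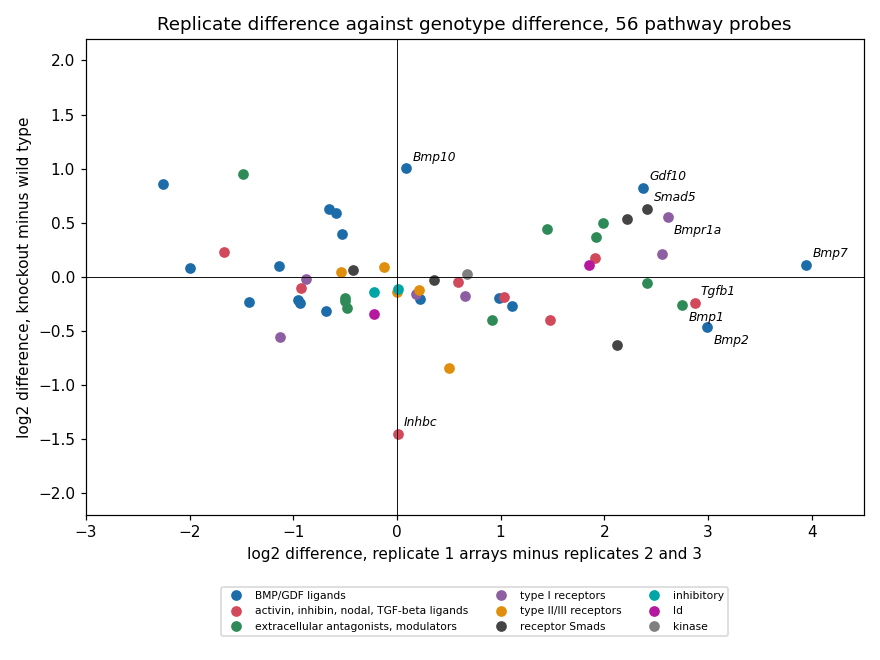
Log2 difference between the replicate 1 arrays and those of replicates 2 and 3 (horizontal axis) against the log2 difference between knockout and wildtype (vertical axis), for the 56 members, coloured by role. The horizontal spread, up to 3.95 for Bmp7, is wider than the vertical one, whose extremes are Inhbc at -1.45 and Bmp10 at 1.00.

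Markers of other tissues were compared along the replicate number as well, as sums of intensity and by marker. The sum of 8 surface ectoderm markers was 293 to 302 on the replicate 1 arrays and 206 to 216 on the others. Epcam and Krt18 made up most of that gap, and 4 of the 8 markers were higher on replicate 1 without overlap, while Krt8 and Cdh1 overlapped. For 8 neural tube markers the sum was 27.5 to 33.5 on replicate 1 and 15.5 to 19.9 on the others, but Sox2 carried it. Sox2 was the 1 marker of that list higher on replicate 1 without overlap, while 3 (Olig2, Msx3 and Nkx6-1) were lower and Sox1, Pax6 and Nkx6-1 lay below the median of every array. For 10 lateral plate and limb bud markers the sum was 18.7 to 21.5 on replicate 1 and 35.4 to 37.9 on the others, carried by Isl1 and Pitx1, with 5 markers lower and 0 higher without overlap, and with Tbx4 and Tbx5 below the median of every array. For the 4 genes of the notochord and floor plate list the sums were 65.1 to 71.4 on replicate 1 and 63.3 to 91.4 on the others. Cdx4, a caudal homeobox gene not particular to the notochord, carried them at 48.0 to 68.0 per array, while Shh read 0.647 to 1.19. The sums were 4895 to 5779 on replicate 1 and 6675 to 7738 on the others for 6 blood markers. Hba-x, which averaged 1445 on replicate 1 and 3472 on the others, was the 1 blood marker lower without overlap. Hbb-y, Gata1 and Klf1, 3 of the 6, were higher without overlap. Somite markers, 8 in number, summed to 474 to 624 on replicate 1 and 517 to 585 on the others. Meox1 carried that sum. Of the 8, 5 were higher on replicate 1 without overlap, among them Aldh1a2 at a mean of 51.4 against 6.68. The other 2 without overlap, Meox1 and Meox2, were lower. The endothelial sum was 96.4 to 97.4 on replicate 1 and 92.3 to 122 on the others, with 5 of 8 markers higher and 2 lower without overlap. Of the presomitic markers themselves, Hes7 read 64.1 and 54.2 on the replicate 1 arrays of knockout and wildtype, against 1.19 to 2.09 on the others. Between genotypes the sums overlapped except for the endothelial one, at 92.3 to 96.4 in the knockout and 97.4 to 122 in wildtype. The Kdr probe carried that sum and itself overlapped between genotypes, and of the 8 endothelial markers 4 were higher and 4 lower in the knockout. By marker, the blocked limma fit gave an unadjusted p under 0.05 for 2 of 10 presomitic markers, Tbx6 (log2 difference 0.23) and Mesp2 (0.56). It did so for 2 of 8 somite markers, Aldh1a2 (1.23) and Tbx18 (-1.02). Pitx1 (0.67), Sox2 (-0.46) and Foxa2 (-0.60) of other lists also passed, where 3.75% of all probes did. Genotypes did not overlap for Tbx18 and the presomitic marker Rspo3 (-0.29), both lower in the knockout. Nor did they for the ectoderm marker Krt14 (0.36), higher in the knockout. Over all probes, 3.78% did not overlap. No marker had an adjusted p under 0.05. The part of these markers in the members' values was not tested.

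**Figure D4:**
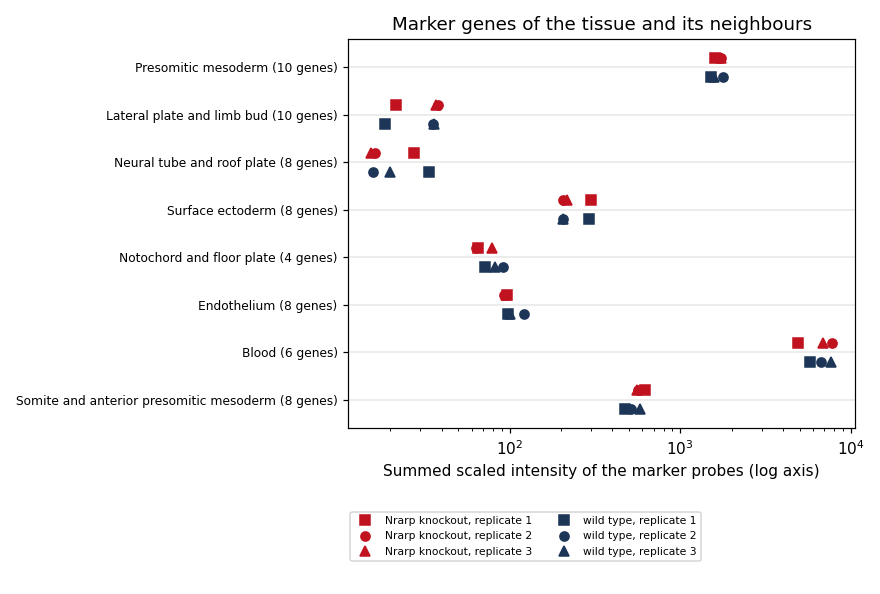
Summed scaled intensity (horizontal log axis) of marker probes for the presomitic mesoderm and 7 other tissues. Red symbols are knockout arrays, drawn above the blue wildtype arrays, and the shape gives the replicate number. For surface ectoderm, neural tube and lateral plate markers the replicate 1 squares of both genotypes lie apart from the other arrays.

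Other genes of these pathways, taken from a list of 58 of which 44 had a named probe, were examined as well. None passed after adjustment in either limma fit. Of the 44 differences, 28 were above 0, where 49.1% of all probes were, and 16 below it. Their median was 0.09, against -0.01 over all probes. At an unadjusted p under 0.05 there were 0 without the block and 3 with it (6.82%, against 3.75% of all probes). Msx2, a homeobox gene induced by BMP, read 36.8, 53.7 and 56.7 in the knockout, against 32.4, 42.2 and 38.9 in wildtype, higher within each pair and overlapping (log2 difference 0.36, limma adjusted p = 0.999 with the block). Msx1, a related BMP target, had the opposite sign, at 6.22, 12.0 and 14.7 in the knockout, against 7.92, 15.4 and 17.9 in wildtype (-0.33). Foxh1, the DNA-binding partner of Smad2 in nodal signalling, read 16.7, 10.7 and 11.9 in the knockout, against 18.8, 13.4 and 19.6 in wildtype (-0.41, limma adjusted p = 0.999 with the block). Sost, an antagonist known from bone, read 1.66, 21.2 and 0.840 in the knockout, against 0.685, 0.621 and 0.611 in wildtype. The genotypes of Sost did not overlap, as for 3.78% of all probes. The Sost log2 difference of 2.27 rested on knockout array 2, without which it was 0.89.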

How the data were processed

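Total RNA from presomitic mesoderm was converted into digoxigenin-labelled cRNA and hybridised to Applied Biosystems arrays, per the labels' protocols, which name a human array, whereas the organism and the probe annotation are mouse. The deposited values are linear probe intensities that the authors had scaled to an array median just under 1. The sources used here name no background correction, flag or filter, and background handling affects dim probes most. The intensities were converted to log2 without further scaling or filter. Of 33012 probes, 14411 had 1 gene in the annotation, 247 several and 18354 none. Where a gene has several probes the brightest was taken, and each member had 1.

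Genotypes were compared over all probes with limma 3.58.1 in R 4.3.3 (lmFit, eBayes with an intensity trend, two-sided, Benjamini-Hochberg adjustment over all probes, threshold 0.05). The fits without and with the block were run on simulated data in which large changes were seeded in brighter probes. That check does not cover dim probes or small differences. Intervals of 95% come from the blocked fit. Replicate numbers were treated as pairing the arrays, since arrays of the same number deviated together from their genotype's mean (correlations 0.757, 0.442 and 0.374). Across numbers 2 and 3 the correlations were 0.397 and 0.419, so this rests on the separation of replicate 1 and no label ties a number to a litter or day. The members and lists were chosen with earlier results of these data known. Per-array values are given for up to 4 of the brightest members of each role, members with an unadjusted p under 0.05 or with separated genotypes, and the 5 with the largest replicate difference, and further members as values. Nog, Lefty2, Grem1, Inhbe and Msx1 were added after their values were seen. The roles came from a fixed list, to which Bmp2k was added. Alternatives covered the block, variance prior, scaling, dim probes, array weights, an offset of 1 and leaving out arrays. Fits that left out a single array had no block. Python 3.11.15, pandas 2.3.3 and matplotlib 3.10.9 made tables and figures. With 3 arrays per genotype, precision is limited.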

Additional observations from a re-analysis of the deposited data

How the results depend on the processing

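No member passed an adjusted p of 0.05 in limma with any of the 17 alternatives run. The number of all probes that did was 0 as reported and 0 in each fit that left out an array, 2 with the replicate block, 1 with array weights, 2 within replicates 2 and 3, and 2 when either quantile normalization or the restriction to replicates 2 and 3 was combined with the block. These combined fits were added after seeing the data. The count of probes at an unadjusted p under 0.05, 217 as reported, was 1238 with the replicate block, 1492 with the block and a variance prior that ignores intensity, 333 without the intensity trend, 529 after quantile normalization, 47 after centring on 75th percentiles, 80 among the brighter probes only (fewer were tested), 3145 with array weights, 1407 within replicates 2 and 3, 1306 with quantile normalization and the block, and 1927 within replicates 2 and 3 with the block. Leaving out single arrays gave 156 to 993, the highest without knockout replicate 1 and 419 without wildtype replicate 1. For the members, the count of 1 became 3 with the block, 4 with the block and the other prior, 0 after 75th-percentile centring, 3 with array weights, 3 within replicates 2 and 3, 3 with quantile normalization and the block, and 4 within replicates 2 and 3 with the block. It was 0 to 3 without single arrays (0 without wildtype replicate 3 or knockout replicate 2, 3 without knockout replicate 1). The members behind these counts differed. Inhbc was not among them without wildtype replicate 2, where Bmp10 was the 1 member, and Smad5 was not among them with the block and the other prior, where Gdf10, Bmp8a, Bmp10 and Inhbc were. Fstl5 was among them with array weights, without knockout replicate 1, and within replicates 2 and 3 both without and with the block. Smad1 was among them without knockout replicate 1, and Id4 within replicates 2 and 3 with the block. The causes were not tested. The members' median difference ranged from -0.14 to 0.04 without single arrays.

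Members lower on replicate 1 without overlap numbered 12, but 27 after 75th-percentile centring, where the share of all probes was 60.9% against 34.4% as reported. Without single arrays they numbered 13 to 19, where 37.2% to 44.8% of all probes were lower, the highest count being without knockout replicate 1 (33.9% of members, against 42.8% of all probes). Smad5 ranged from -0.049 without knockout replicate 1 to 1.56 without wildtype replicate 1, while Inhbc, Gdf10 and Bmp10 kept their sign under every alternative run. Of 30 members given as descriptions, 23 changed sign in at least 1 alternative, and Acvr2b, Bambi, Bmper, Bmpr2, Chrd, Smad1 and Tgfbr2 did not. The alternatives that left out a single array had no block. Without a replicate 1 array, their genotype difference also held part of the replicate difference. A sign change there cannot be read as instability of the genotype difference alone. Averaging the probes of a gene was not run, since each member has 1 probe. Dim probes limit what can be said of Bmp10, Inhbc, Nodal and Id4.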
